A study of Homo sapiens with 6 samples.

Results

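AXL and FGFR1, 2 receptor tyrosine kinases known as bypass receptors in lung cancer, were followed as named genes, by symbol, among the 6641 genes of a deposited expression table. RNA-seq covered 2 human lines with 3 libraries apiece. The established line HCC827 comes from a lung adenocarcinoma and carries an activating mutation of EGFR, the epidermal growth factor receptor. HCC827_Er is its counterpart, in a series whose title names parental and resistant cells and whose design text names resistance to EGFR kinase inhibitors. No inhibitor, dose, time or cloning step is given for either group in the sources used here, nor whether HCC827_Er is 1 clone or whether its libraries, or those of HCC827, were grown as separate cultures. The p-values below therefore measure the spread between these libraries, which may be technical. The labels' extraction protocol speaks of tissue, while the labels themselves name cell lines.

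The values were FPKM, read fragments scaled to transcript length and library size, so levels are given per length and can be set beside each other between genes, while the sequencing depth is unknown. Summed FPKM ran from 184633 to 224211 in a single library. Across genes, r was 0.991 to 0.994 between libraries of the same line and 0.806 to 0.809 between lines, with genes not independent replicates. For 96.1% of its genes every library of one line stood above every library of the other, so the table holds almost only genes that differ between the lines. A gene was called at a limma adjusted p under 0.05 (Benjamini-Hochberg over the 5276 genes tested) and a difference of at least 1 on the log2(FPKM + 1) scale. On that rule 24.7% of the tested genes were called higher and 19.7% lower in HCC827_Er, 44.4% in all, and 98.3% had an adjusted p under 0.05 at any size of difference. With median-ratio rescaling of the libraries 902 genes were called higher and 1671 lower, and with rescaling to equal sums 1825 and 794, against 1304 and 1041 as deposited. These scalings moved the median of all tested genes, 0.43 as deposited, by -0.25 and 0.18. The 90 tested genes of the 13 lists used below kept their sign under these scalings and under quantile normalization. All of these scalings were set by the genes of this table, which almost all differ between the lines. They are therefore no independent check of the scaling.

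AXL belongs to the TAM family of receptor tyrosine kinases with TYRO3 and MERTK. Its ligand is GAS6, which bridges the receptor to phosphatidylserine on membranes, while protein S, the product of PROS1, acts mainly on MERTK and TYRO3. FGFR1 binds fibroblast growth factors such as FGF2 together with heparan sulfate, signals through the adaptor FRS2 to the RAS and ERK cascade, and is held in check by Sprouty proteins and dual-specificity phosphatases. Both receptors are known for high levels in carcinoma cells of mesenchymal character and for sustaining survival signals when EGFR is blocked.

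AXL (ENSG00000167601) lies on the plus strand of chromosome 19, from 41219203 to 41261766 on GRCh38 in GENCODE 29. RefSeq gives 2 transcript starts for AXL, and the 250 bases before each are shown because outputs of the YAP and TEAD factors and subunits of AP-1 were called lower in the same libraries as AXL. The window of the first start is chr19:41218973-41219222 on GRCh38.p14, plus strand, outside the gene but for its last 20 bases, which GENCODE 29 places in an untranslated exon stretch of AXL. The window of the second start, chr19:41226505-41226754, also on the plus strand, holds no annotated exon and lies inside the gene. Both are printed 5′ to 3′, with matches in capitals.
AXL first start: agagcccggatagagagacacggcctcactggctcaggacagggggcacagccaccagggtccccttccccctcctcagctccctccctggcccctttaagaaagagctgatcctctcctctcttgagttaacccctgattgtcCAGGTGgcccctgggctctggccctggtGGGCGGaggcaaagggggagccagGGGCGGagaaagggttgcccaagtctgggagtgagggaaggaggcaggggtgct
AXL second start: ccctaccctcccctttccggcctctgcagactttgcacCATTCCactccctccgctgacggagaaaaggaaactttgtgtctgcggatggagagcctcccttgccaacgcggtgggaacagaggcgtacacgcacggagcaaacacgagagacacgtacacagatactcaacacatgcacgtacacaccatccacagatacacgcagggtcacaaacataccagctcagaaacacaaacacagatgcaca
The motifs searched on both strands were the SP1 box GGGCGG, the TEAD motif GGAATG, the AP-1 motif TGANTCA and the E-box CAGGTG that ZEB and SNAI repressors bind. The window of the first start held GGGCGG beginning 78 and 54 bases before the start and CAGGTG at 106 bases. The window of the second start held the reverse complement of the TEAD motif, CATTCC, at 212 bases. The AP-1 motif was in neither window, and the TEAD motif was not in that of the first start. Of 35114 RefSeq promoter windows of this length, 42.6% held an SP1 box, 11.9% a TEAD motif, 6.57% an AP-1 motif and 17.5% the E-box. The first window held 4 CG dinucleotides and the second 13, where the median window held 11. A match is a description of letters and not of a bound site.

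AXL, the receptor of GAS6, fell in HCC827_Er. Its level was 33.14, 31.11 and 33.28 FPKM in HCC827 replicates 1 to 3 and 1.48, 1.21 and 1.09 FPKM in HCC827_Er replicates 1 to 3. All HCC827 libraries stood far above all HCC827_Er libraries, and the lines did not overlap. The mean was 25.8-fold lower in HCC827_Er, and single libraries of the lines differed by 21.0-fold to 30.5-fold. On the log2(FPKM + 1) scale the difference was -3.89 (SE 0.10, limma adjusted p = 5.80e-09), and it was -2.58 with a pseudocount of 5. AXL ranked 38 among the 5276 tested genes counted from the largest fall.

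FGFR1, the receptor of FGF2, fell as well. The gene (ENSG00000077782) lies on the minus strand of chromosome 8, from 38400215 to 38468834 in GENCODE 29. Its level was 77.70, 68.12 and 75.87 FPKM in HCC827 and 1.74, 1.73 and 2.76 FPKM in HCC827_Er. The lines again did not overlap, and replicate 3 was the high library within HCC827_Er. The mean was 35.6-fold lower, with single libraries apart by 24.7-fold to 44.9-fold. On the log2(FPKM + 1) scale the difference was -4.62 (SE 0.13, limma adjusted p = 9.56e-09), rank 19 from the largest fall. In bulk RNA, fewer cells with a transcript and less transcript per cell cannot be told apart.

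Whether one receptor fell more than the other could not be settled. AXL stood at 0.427, 0.457 and 0.439 of the FPKM of FGFR1 in the HCC827 libraries and at 0.851, 0.699 and 0.395 in the HCC827_Er libraries. These ranges overlapped, because HCC827_Er replicate 3 lay below all HCC827 libraries. On the log2(FPKM + 1) scale the log ratio of AXL to FGFR1 was -1.16 ± 0.050 in HCC827 and -0.43 ± 0.37 in HCC827_Er (SD, n = 3), a difference of 0.73 with an exact two-sided permutation p = 0.10, the smallest that 3 against 3 libraries allow. With a pseudocount of 0.1 the difference was 0.53 and the exact permutation p = 0.4.

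**Figure D1:**
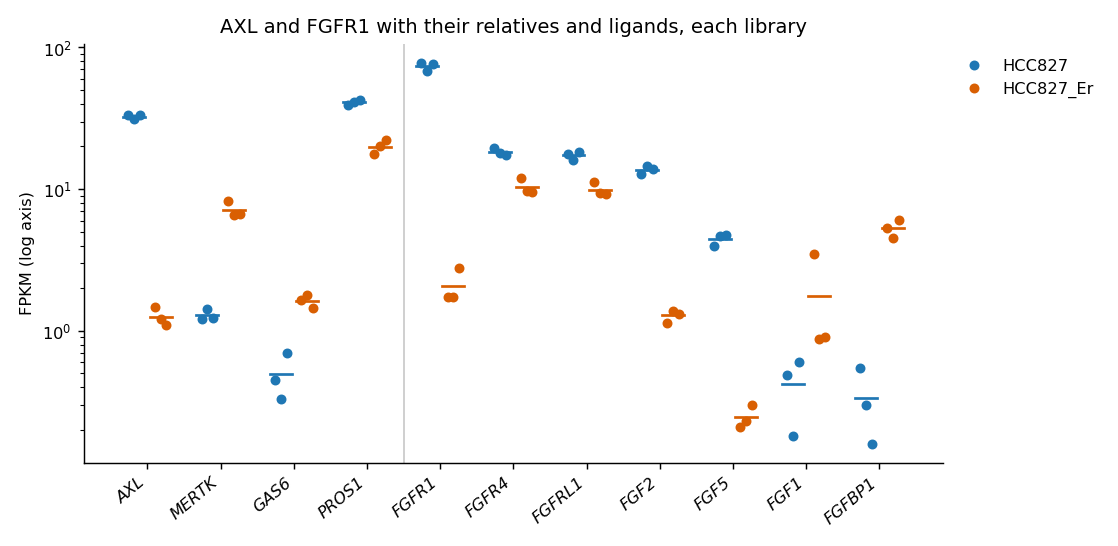
FPKM of AXL, FGFR1 and their listed relatives and ligands on a log axis. There is 1 point per library and a bar at the mean of the 3 libraries of a line. FGFR2 and FGF9, at 0 in HCC827, are left out. AXL and FGFR1 lie between 31.11 and 77.70 FPKM in HCC827 and between 1.09 and 2.76 FPKM in HCC827_Er, while MERTK, GAS6, FGF1 and FGFBP1 lie higher in HCC827_Er.

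The other TAM genes did not move as one. MERTK, the TAM receptor of phagocytic cells that clears dying cells, stood at 1.22, 1.42 and 1.24 FPKM in HCC827 and 8.27, 6.53 and 6.69 FPKM in HCC827_Er. It was 5.54-fold higher without overlap (log2 difference 1.83, limma adjusted p = 1.26e-06; not called with a pseudocount of 5). AXL made up 95.6% to 96.5% of the summed FPKM of AXL and MERTK in the HCC827 libraries and 15.2%, 15.6% and 14.01% in the HCC827_Er libraries. The sum itself was 33.8 ± 1.11 FPKM for HCC827 against 8.42 ± 1.15 FPKM for HCC827_Er (SD, n = 3), so the gain of MERTK was smaller than the loss of AXL. The share does not depend on how a library is scaled. The receptor TYRO3 was not analysed here.

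Of the TAM ligands, GAS6 stood at 0.45, 0.33 and 0.70 FPKM in HCC827 and 1.66, 1.79 and 1.45 FPKM in HCC827_Er. The lines did not overlap, but the log2 difference of 0.82 was under the minimum. GAS6 was called higher with a pseudocount of 0.1. It reached the 1 FPKM minimum for testing in HCC827_Er alone, which fixed its direction. PROS1 was far more abundant, at 39.41, 41.25 and 42.63 FPKM in HCC827 and 17.64, 20.23 and 22.08 FPKM in HCC827_Er. It was called lower at a log2 difference of -1.01, just past the minimum (limma adjusted p = 6.67e-06). That call was lost with rescaling to equal sums, with quantile normalization, with a pseudocount of 5, without HCC827 replicate 3 and without HCC827_Er replicate 1. PROS1 thus stood above AXL in every library, by a log ratio of 0.33 ± 0.078 in HCC827 and 3.21 ± 0.28 in HCC827_Er (SD, n = 3).

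Of the FGF receptor kinases, FGFR4 and FGFR2 were listed beside FGFR1. FGFR4, a receptor of epithelia and liver, stood at 19.41, 18.04 and 17.51 FPKM in HCC827 and 11.95, 9.63 and 9.61 FPKM in HCC827_Er, without overlap. Its log2 difference of -0.77 missed the call as deposited, while median-ratio rescaling made it a lower call. FGFR2 was listed at 0 in all 3 HCC827 libraries and at 0.36, 0.29 and 0.27 FPKM in HCC827_Er, too low to be tested. FGFR1 made up 79.1% to 81.3% of the summed FPKM of these 3 receptors in HCC827 and 12.4%, 14.9% and 21.8% in HCC827_Er, where FGFR4 held 76.0% to 85.1%. The sum went from 92.2 ± 5.57 to 12.8 ± 1.21 FPKM (SD, n = 3). FGFRL1, a relative without a kinase domain, stood at 17.63, 16.03 and 18.23 against 11.18, 9.36 and 9.25 FPKM (log2 difference -0.75, not called as deposited but lower after median-ratio rescaling). FGFR3 and the co-receptors KLB and KL were not analysed here.

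For 5 pairs of genes the log2 ratio per library was compared between the lines, 4 of them chosen after the values were seen. In HCC827_Er minus HCC827 the ratio of MERTK to AXL differed by 5.72 and that of FGFR4 to FGFR1 by 3.85. The ratio of FGF2 to FGFR1 differed by 1.93 and that of PROS1 to AXL by 2.88. On the log2(FPKM + 1) scale the ranges of the lines were apart in each of the 5 pairs. The plain FPKM ratio of AXL to FGFR1 overlapped between the lines. Each of the 5 gave an exact two-sided permutation p = 0.10, also after adjustment over the 5 pairs, and that is the smallest value this design allows.

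**Figure D2:**
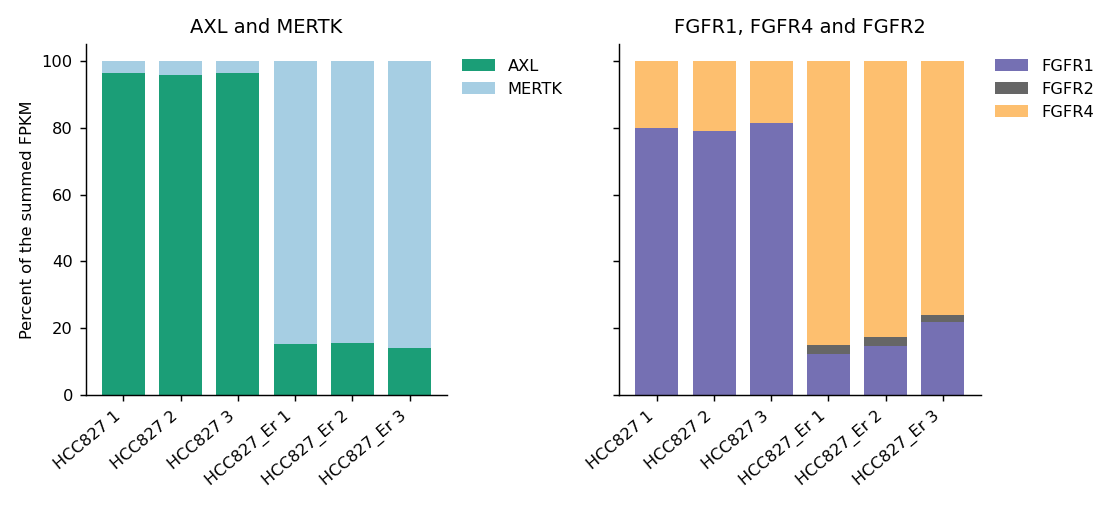
Percent of the summed FPKM in each library held by AXL and MERTK (left) and by FGFR1, FGFR2 and FGFR4 (right), as stacked bars from 0. AXL falls from at least 95.6% to at most 15.6% of its pair, and FGFR1 from at least 79.1% to at most 21.8% of its group.

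The ligand genes FGF2 and FGF5 fell with FGFR1. FGF2, the basic fibroblast growth factor and a main ligand of FGFR1, stood at 12.71, 14.46 and 13.91 FPKM in HCC827 and 1.14, 1.39 and 1.32 FPKM in HCC827_Er. It was 10.7-fold lower without overlap (log2 difference -2.69, limma adjusted p = 5.57e-08). FGF5 stood at 3.96, 4.67 and 4.73 against 0.21, 0.23 and 0.30 FPKM, 18.1-fold lower (log2 difference -2.13, not called with a pseudocount of 5). FGFBP1, a secreted carrier that releases fibroblast growth factors from the matrix, went the other way. Its values were 0.55, 0.30 and 0.16 FPKM in HCC827 and 5.31, 4.55 and 6.01 FPKM in HCC827_Er (log2 difference 2.24, limma adjusted p = 1.03e-06, not called with a pseudocount of 5). FGF1 and FGF9 were listed but too low to be tested. FGF1 stood at 0.49, 0.18 and 0.60 FPKM in HCC827 and 3.49, 0.87 and 0.91 FPKM in HCC827_Er, where replicate 1 set the mean. FGF9 was listed at 0 in HCC827 and at 1.11, 0.60 and 0.68 FPKM in HCC827_Er. In all, 5 of 21 names of this list were in the table and 3 were tested, 2 called lower and 1 higher, where 19.7% and 24.7% of all tested genes were called lower and higher. FGF5 reached the 1 FPKM minimum for testing in HCC827 alone and FGFBP1 in HCC827_Er alone, which fixed their direction.

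Of the adaptors and feedback inhibitors downstream of FGF receptors, 10 of 27 names were in the table. Of the 9 tested, 2 were called higher, 2 lower and 5 were not called, with a median log2 difference of -0.57 against 0.43 for all tested genes. The shares, 22.2% in each direction, lay near the 24.7% higher and 19.7% lower of all tested genes. DUSP6, the phosphatase that switches off ERK, stood at 5.73, 5.88 and 7.69 FPKM in HCC827 and 62.12, 61.84 and 58.90 FPKM in HCC827_Er. It was thus 9.48-fold higher in the line with little FGFR1 (log2 difference 3.07, limma adjusted p = 2.20e-08). ETV4, a transcription factor induced through ERK, stood at 4.04 ± 0.284 and 16.3 ± 1.30 FPKM (SD, n = 3) and rose by 1.78 on the log2 scale. FLRT1 and FLRT2, membrane proteins that bind FGF receptors, were called lower at log2 differences of -1.09 and -1.18. These 2 fell short of the 1 FPKM minimum in HCC827_Er libraries and entered the test through HCC827, so their direction says little. FLRT1 was not called with rescaling to equal sums or a pseudocount of 5, and FLRT2 not with a pseudocount of 5 or without HCC827_Er replicate 1. Feedback inhibitors among the members not called went both ways. SPRY1, a Sprouty inhibitor, stood at 10.6 and 18.7 FPKM, and DUSP4, a dual-specificity phosphatase, at 5.75 and 2.79 FPKM, each without overlap. DUSP4 was called lower with median-ratio rescaling, with quantile normalization and with a pseudocount of 0.1. Both were named after their values were seen.

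Heparan sulfate proteoglycans hold fibroblast growth factors at their receptors, and 4 of them were tested, with 2 called lower and 2 higher. With the enzymes that build or trim heparan sulfate there were 7 tested genes, 3 called lower and 2 higher, where 19.7% and 24.7% of all tested genes were called. Their median log2 difference was 0.63, against 0.43 for all tested genes. The 3 called lower did not reach the 1 FPKM minimum in HCC827_Er and entered the test through HCC827, which fixed their direction. SDC2 fell from 12.9 ± 2.88 to 0.297 ± 0.116 FPKM and GPC4 from 4.36 ± 0.252 to 0.060 ± 0.0361 FPKM, while SDC1, the syndecan of epithelia, rose from 8.77 ± 1.74 to 72.5 ± 4.24 FPKM (SD, n = 3). The extracellular sulfatase gene SULF1 fell by 1.30 on the log2 scale and GPC2 rose by 1.29. SULF1 was not called without HCC827 replicate 2. GPC4, GPC2 and SULF1 were not called with a pseudocount of 5.

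Of the sheddases and adaptors of AXL, 6 of 13 names were tested, 2 called higher and 4 not called, with a median log2 difference of 0.21 against 0.43 for all tested genes. The share called higher was 33.3%, beside 24.7% of all tested genes. VAV1, a guanine nucleotide exchange factor, rose by 1.24 and LCK, a kinase of the SRC family, by 1.77. LCK fell short of the 1 FPKM minimum in every HCC827 library and entered the test through HCC827_Er alone, which fixed its direction. VAV1 was not called with median-ratio rescaling, and neither was called with a pseudocount of 5. ADAM10, a protease that sheds AXL from the cell surface, stood at 117 and 68.2 FPKM. It missed the call as deposited, passed it as lower after median-ratio rescaling, and was named after its values were seen.

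The order of the listed receptor tyrosine kinases changed around AXL and FGFR1. In HCC827, FGFR1 ranked 2 and AXL ranked 5 of 27 listed receptor kinases by FPKM in every library. FGFR1, between 68.12 and 77.70 FPKM, did not overlap with MET above it (95.64 to 104.57 FPKM) or with EPHA2 below it (55.80 to 59.34 FPKM). AXL, between 31.11 and 33.28 FPKM, did not overlap with DDR1 above it or with ERBB3 below it. In HCC827_Er, FGFR1 ranked 13 to 15 and AXL ranked 17. FGFR1 there overlapped with LMTK3, ROS1 (2.43 to 2.70 FPKM), NTRK2 (1.33 to 1.75 FPKM) and EPHA4 (1.22 to 5.46 FPKM). AXL overlapped with NTRK2, EPHA4 and EPHB3 (0.93 to 1.52 FPKM). AXL and FGFR1 together held 28.6%, 27.2% and 28.0% of the summed FPKM of the 27 kinases in the HCC827 libraries and 0.692%, 0.615% and 0.859% in the HCC827_Er libraries. EGFR was not analysed here. Of 56 names of other receptor kinases, 25 were in the table, which holds almost only genes that differ between the lines. These ranks and shares therefore cover the listed kinases alone. MET, EPHA2, DDR1, ERBB3, LMTK3, NTRK2, EPHA4 and EPHB3 were named for their place in this order after the values were seen.

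Other receptor kinases were called in both directions. The table held 25 of them, with 16 tested, and 10 were called higher, 2 lower and 4 not called, where 24.7% and 19.7% of all tested genes were called higher and lower. The median log2 difference of the 16 was 1.19, against 0.43 for all tested genes. Of the 10, 6 (CSF1R, ROS1, EPHA1, NTRK2, LMTK3 and EPHA4) fell short of the 1 FPKM minimum in at least 1 HCC827 library and entered the test through HCC827_Er, so their direction says little. EPHA6 in turn entered through HCC827. With a minimum of 5 FPKM, 5 were called higher and 1 lower. With median-ratio rescaling 6 were called higher and 3 lower, and with a pseudocount of 5 there were 3 called higher. MST1R, the receptor of macrophage-stimulating protein, stood at 3.09, 3.41 and 3.82 FPKM in HCC827 and 28.44, 32.85 and 24.03 FPKM in HCC827_Er, and rose by 2.72 on the log2 scale. CSF1R, the receptor of macrophage colony-stimulating factor, rose by 2.38 and the orphan receptor ROS1 by 1.76. The ephrin receptor gene EPHA1 rose by 1.65, and EPHA6 fell by 1.38. CSF1R, ROS1, EPHA1 and EPHA6 were not called with a pseudocount of 5.

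**Figure D3:**
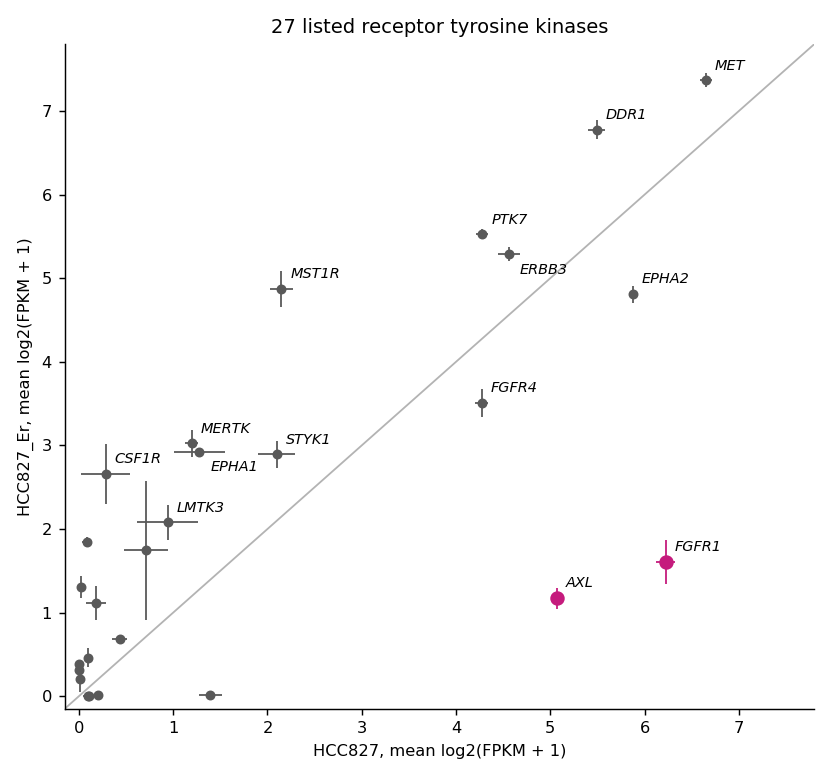
Mean log2(FPKM + 1) of 27 listed receptor tyrosine kinases in HCC827 (horizontal) and HCC827_Er (vertical), with bars for the SD over 3 libraries and a line of equal values. AXL and FGFR1 lie farthest below the line, by 3.89 and 4.62, while MST1R, CSF1R and MERTK lie above it.

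AXL is a known target of the YAP and TEAD factors and of AP-1, and 12 of 18 genes of these factors and their outputs were in the table. Of the 12 tested, 9 were called lower and 3 not called, with a median log2 difference of -1.58, where 19.7% of all tested genes were called lower. FOSB, an AP-1 subunit, stood at 49.49, 45.84 and 55.39 FPKM in HCC827 and 0.35, 0.42 and 0.97 FPKM in HCC827_Er. It entered the test through HCC827 alone, which fixed its direction, while the other 8 called lower reached 1 FPKM in all 6 libraries. The YAP outputs ANKRD1, CCN2, AMOTL2 and CCN1 were called lower at log2 differences of -4.03, -3.88, -2.22 and -1.62. FOS, a further AP-1 subunit, fell by 2.77. The count called lower was 11 with median-ratio rescaling and 8 with rescaling to equal sums. This list was chosen with earlier results of these data known, in which YAP outputs were already seen to be lower.

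Of 12 tested mesenchymal genes, 6 were called higher and 5 lower, where 24.7% and 19.7% of all tested genes were, with a median log2 difference of 1.15 against 0.43. In all 6 libraries at least 1 FPKM was reached by 4 of those called higher and 2 of those called lower. CDH2, the N-cadherin gene whose product binds FGFR1, stood at 8.07, 7.76 and 8.05 FPKM in HCC827 and 0.09, 0.05 and 0.21 FPKM in HCC827_Er. The repressor gene ZEB2 fell by 2.47 on the log2 scale. The other 3 called lower were VIM, the gene of the filament protein vimentin, at -2.37, and the repressor genes ZEB1 at -1.94 and SNAI2 at -1.12, named after their values were seen. The matrix genes SPARC, COL1A1 and FN1 were called higher at 3.91, 2.67 and 2.57, as was S100A4, a gene linked to cell motility, at 2.67. CDH2, ZEB2 and SNAI2 entered the test through HCC827, and SPARC and COL1A1 through HCC827_Er, so their direction says little. Of 14 tested epithelial genes 12 were called higher and 2 were not called, where 24.7% of all tested genes were called higher, with a median log2 difference of 2.73 against 0.43. Of the 12, 4 (GRHL2, RAB25, OVOL1 and OVOL2) fell short of 1 FPKM in HCC827 libraries and entered the test through HCC827_Er. Their direction says little, and the share and median above include them. The other 8 reached 1 FPKM in all 6 libraries. Of the 12 called higher, ESRP1 rose by 4.38, GRHL2 by 3.64, RAB25 by 3.36, NKX2-1 by 3.27, EPCAM by 3.25 and OVOL1 by 2.99.

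Summed FPKM of the 14 epithelial markers ran from 2476 to 2562 in HCC827 and from 3655 to 3850 in HCC827_Er. In HCC827 the keratin gene KRT8 alone made up 68.4% to 69.8% of that sum, and in HCC827_Er 27.1% to 27.6%. KRT8 stood at means of 1744 and 1025 FPKM and was not called as deposited, while median-ratio rescaling made it a lower call. EPCAM, CDH1 and KRT19, which define epithelial cells, stood at 30.1, 60.7 and 387 FPKM in HCC827, while OVOL1, RAB25, GRHL2 and OVOL2 had means under 1 FPKM there. Fibroblasts and macrophages carry AXL, FGFR1, MERTK or CSF1R, so their markers are given here. Of 12 fibroblast markers 3 were in the table, with summed FPKM of 2.46 to 3.35 in HCC827 and 9.33 to 11.5 in HCC827_Er. COL3A1 was listed at 0 in all HCC827_Er libraries, LUM stood at 1.81 and 0.530 FPKM, and COL1A1 was the member called higher. LUM, not called as deposited, was called lower with median-ratio rescaling, with quantile normalization and with a pseudocount of 0.1. The same call came without HCC827 replicate 3 and without HCC827_Er replicate 1. Of 12 leukocyte markers 5 were in the table, with summed FPKM of 172 to 179 in HCC827 and 131 to 144 in HCC827_Er, most of it from CD68. CSF1R, CORO1A, LAPTM5 and CD14 were called higher in HCC827_Er, at means of 5.45, 7.66, 4.49 and 1.73 FPKM there. They were 80.0% of the 5 tested leukocyte markers, where 24.7% of all tested genes were called higher. All 4 stayed under 1 FPKM in every HCC827 library and were tested through HCC827_Er alone, which fixed their direction. That share therefore says little. CD68, the other tested marker, reached 1 FPKM in all 6 libraries and was not called (log2 difference -0.57). CD14 was not called after quantile normalization, and CSF1R, LAPTM5 and CD14 not with a pseudocount of 5. Of 7 endothelial markers 2 were in the table, with summed FPKM of 8.48 to 9.57 and 6.83 to 7.78, and CDH5 was listed at 0 in HCC827. The part of other cell types in these results was not tested. COL1A1 fell short of 1 FPKM in HCC827 libraries and entered the test through HCC827_Er, so its direction says little. LUM in turn entered through HCC827. LUM, COL3A1, CDH5, CD68, KRT8, CDH1, KRT19 and OVOL2 were named after their values were seen.

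**Figure D4:**
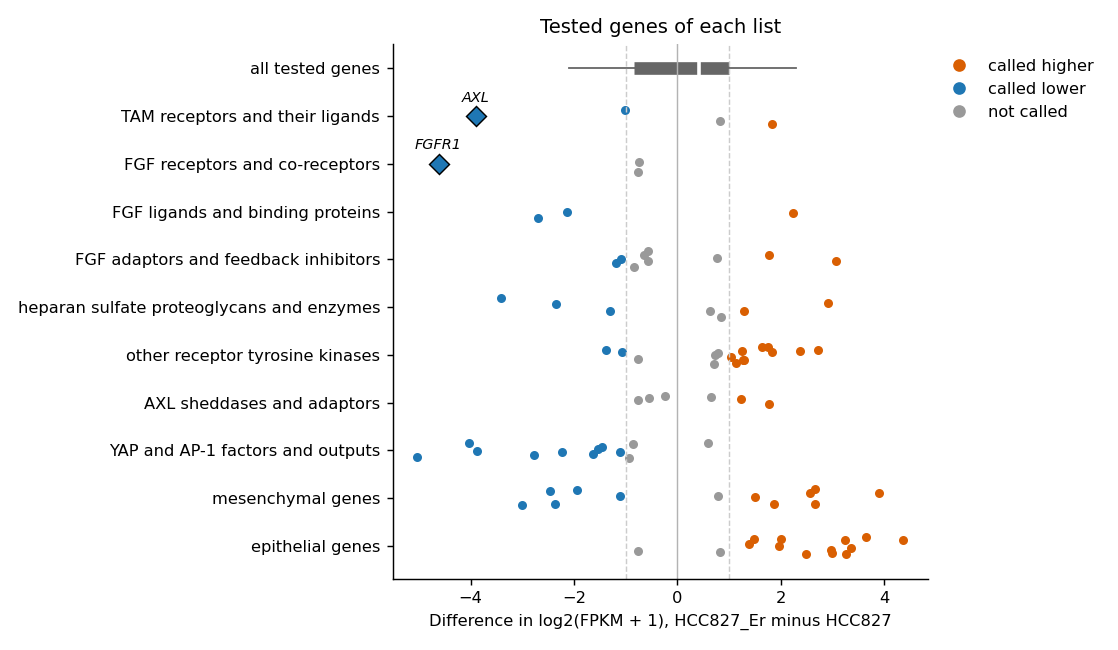
Difference in log2(FPKM + 1), HCC827_Er minus HCC827, of the tested genes of each list except the fibroblast, endothelial and leukocyte markers. Each gene of a list is 1 point coloured by its call, with AXL and FGFR1 as diamonds. The top row shows all 5276 tested genes (thin line, percentiles 5 to 95; thick line, 25 to 75; notch, median), and its thin line ends at -2.09, above AXL at -3.89 and FGFR1 at -4.62.

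The genes most like each receptor were found by the Euclidean distance of log2(FPKM + 1) over the 6 libraries, among tested genes with a symbol and a RefSeq protein. The measure reads level and difference together. For AXL the nearest were EFHB at 0.517, CCN2 at 0.565, GPRC5B at 0.740, COL4A1 at 0.799 and ADGRL2 at 0.907. CCN2, a secreted matricellular protein, stood at 36.02, 35.37 and 33.30 FPKM in HCC827 and 1.17, 1.30 and 1.92 FPKM in HCC827_Er, which overlapped with AXL in HCC827_Er alone. COL4A1, a collagen of basement membranes, stood at 29.82, 28.10 and 30.08 against 1.81, 1.86 and 2.25 FPKM. For FGFR1, 4 of the 5 nearest were VNN2 at 0.717, PDZK1 at 1.01, FXYD2 at 1.19 and LGALS2 at 1.25. VNN2, a member of the vanin family of pantetheinases, stood at 61.50, 60.91 and 65.58 against 1.78, 0.85 and 2.41 FPKM. AXL and FGFR1 were 2.21 apart, and 49 genes were nearer to AXL than FGFR1 was. All 9 genes named were called lower, which the choice by likeness fixes.

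**Figure D5:**
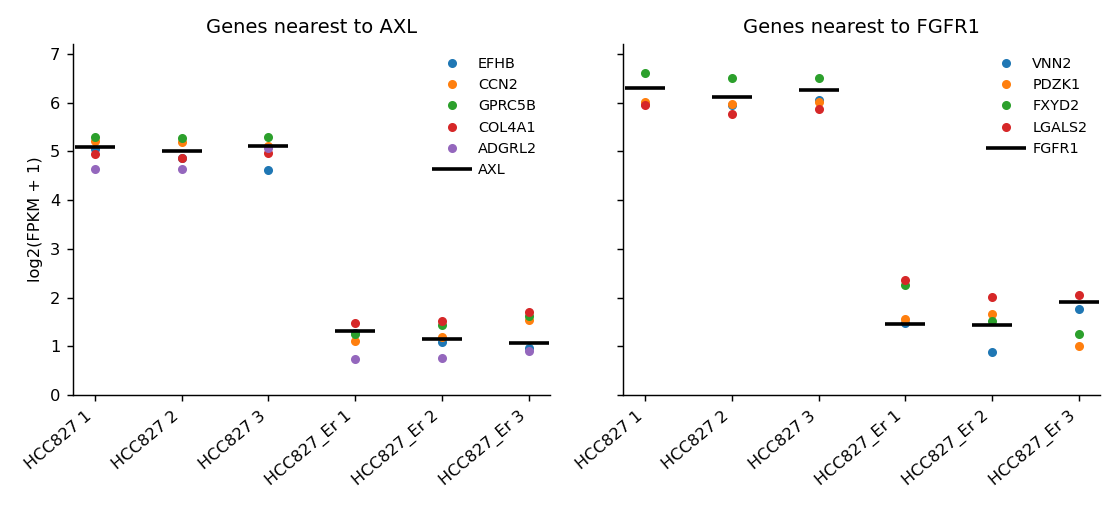
log2(FPKM + 1) in each of the 6 libraries for AXL (left, black bars) and FGFR1 (right, black bars) with 5 of the genes nearest to AXL and 4 of those nearest to FGFR1 as points. The points follow the bars from about the level of AXL or FGFR1 in HCC827 to the low level in HCC827_Er.

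The 3 listed genes nearest on each side in the GENCODE 29 order were read for both loci. Around AXL the cytochrome gene CYP2S1, 11.7 kb away, was called higher at 3.13, 2.14 and 2.62 against 7.65, 8.41 and 6.44 FPKM. CEACAM5 and CEACAM6, adhesion molecules of epithelia 446.8 and 489.2 kb away with 32 and 34 annotated genes between, were called higher too, but entered the test through HCC827_Er alone. CYP2B6, RAB4B-EGLN2 and CEACAM7 were too low to be tested, CEACAM7 with means of 0.940 and 0.443 FPKM. Around FGFR1, PLEKHA2, 432 kb away, was called lower at means of 37.5 against 8.23 FPKM. TACC1, 259 kb away, stood at 7.29 and 4.13 FPKM (log2 difference -0.69) and was not called. TEX15 was not called, and ADGRA2, PURG and RPS20P22 were too low to be tested. PURG and TEX15 lie 7366.5 and 7487.2 kb away and are neighbours only in the order of listed genes. Many annotated genes between these are not analysed here.

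RPS20P22, a ribosomal pseudogene, lies inside FGFR1 on the same strand. It stood at 0.66, 1.10 and 0.81 FPKM in HCC827 and 0, 0.06 and 0 FPKM in HCC827_Er, too low to be tested. The annotated antisense genes AC011510.1 in AXL and AC087623.1 and AC087623.3 in FGFR1, and LETM2, which overlaps the end of FGFR1, were not analysed here. The use of strand in counting is not given in the sources used here, so reads of overlapping genes cannot be told apart.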

How the data were processed

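Libraries for 3 HCC827 and 3 HCC827_Er samples were made from total RNA (Illumina TruSeq, per the labels' protocols). The authors deposited FPKM per gene and library, with Ensembl identifiers and no counts. Per the submitters' processing notes fastp, HISAT2 and StringTie were used, with GRCh38.p14 and hg19 named as builds without roles. Tool versions, the annotation and how the listed genes were picked are not given in these sources. A few very abundant transcripts lower all other FPKM of a library.

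Symbols were matched by identifier for 6636 of 6641 genes. FPKM was transformed to log2(FPKM + 1), a scale on which changes of low genes come out too small. Genes reaching 1 FPKM in 3 libraries were tested (5276, with 1365 set aside) with limma 3.58.1 (R 4.3.3; moderated variances with a mean trend) with the line as the only term, adjusted by Benjamini-Hochberg. The steps were tested on simulated data. Ratios of 2 genes were compared by an exact permutation test over libraries.

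The genes and lists were chosen with earlier results of these data known. The rule for naming was AXL and FGFR1, every listed TAM, FGF receptor and FGF ligand gene, up to 6 called members of each other list with the largest differences, the 5 most alike genes and 3 listed neighbours per side. A gene that this rule selects is not reported here. Positions came from GENCODE 29, and sequences from RefSeq on GRCh38.p14. Alternatives were other pseudocounts and minima, 3 rescalings, other limma settings, leaving out single libraries, and blocking on the replicate number.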

Additional observations from a re-analysis of the deposited data

How the results depend on the processing

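AXL and FGFR1 stayed lower and past the threshold in all 17 alternatives, at -4.59 to -2.58 (adjusted p of 1.64e-09 to 5.49e-07) and -5.12 to -3.48 (2.81e-09 to 4.93e-07) on the log2 scale. Leaving out 1 library gave -3.96 to -3.84 for AXL, -4.77 to -4.54 for FGFR1 and 0.58 to 0.93 for the log ratio of AXL to FGFR1. It gave 1298 to 1334 genes called higher and 1034 to 1056 lower, and 9 to 10 other receptor kinases called higher and 2 to 2 lower. With a pseudocount of 5, 579 genes were called higher and 506 lower, and 3 other receptor kinases higher and 0 lower (limma, with 3 of 16 lower at an unadjusted p under 0.05). With a test against a log2 difference of 1 there were 827 higher and 664 lower, and 1 receptor kinase lower. With a minimum of 5 FPKM there were 867 genes higher, with 5 receptor kinases higher and 1 lower, since fewer genes were tested. Median-ratio rescaling gave 1671 genes lower and 6 receptor kinases higher, and rescaling to equal sums and quantile normalization each gave 1 receptor kinase lower. The cause of these shifts was not tested.

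The replicate numbers are shared between the lines. Same-numbered libraries correlated in their deviations at 0.106, -0.022 and 0.049, and libraries of other numbers at -0.09 to 0.041. Whether same-numbered libraries were handled together cannot be told from these values. With the replicate block AXL stood at -3.89 (adjusted p = 5.49e-07), FGFR1 at -4.62 (4.48e-07), and the log ratio at 0.73 (exact sign-flip p = 0.25, the smallest possible). The table gives no depth, so counting error of the low HCC827_Er values is unknown.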
